A study of Mus musculus with 2 samples.

Results

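The interleukin-17 transcripts described here are those of the cytokines Il17a and Il17f and of the receptor chains Il17re and Il17ra. They were found by gene symbol among the 31053 genes of the count tables, and all 4 members were present in both libraries. The libraries hold single cells sorted as innate lymphoid cells (ILCs) from the lamina propria of the small intestine (SI LP) of C57BL/6 mice. The Zfp36_KO library came from Zfp36-deficient (Zfp36-/-) mice and the WT library from wild-type mice. Cells of 4 mice were pooled per genotype, so each genotype is 1 library, with no replicate and no test between genotypes. The labels name no Cre driver for these mice, no treatment, and neither age nor sex. The sort took live CD45+ cells that were positive for CD90.2 and CD127 and negative for lineage markers, CD3 and TCRβ.

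IL-17A and IL-17F are related cytokines, encoded close together, that signal through a receptor of IL-17RA and IL-17RC. In the gut wall they act on epithelial and stromal cells, inducing antimicrobial peptides and chemokines that draw neutrophils, and their known lymphoid producers are T helper 17 cells, γδ T cells and group 3 ILCs (ILC3). IL-17RE pairs with IL-17RA to form the receptor for the epithelial cytokine IL-17C. Zfp36 encodes tristetraprolin, a protein that binds AU-rich elements in the 3′ untranslated region (3′ UTR) of messenger RNAs and promotes their decay.

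The 3′ UTRs of the cytokine genes are shown for that reason. The heptamer TATTTAT, a core form of such elements, was counted on the transcript strand, overlapping matches included, in 20986 mouse genes with an annotated 3′ UTR (GENCODE M21, GRCm38). It occurred 3 times in the 637-base 3′ UTR of Il17a and 2 times in the 621 bases of Il17f. Of all genes, 4.15% had as many copies as Il17a or more, 10.4% as many as Il17f or more, and 72.4% had none. Il17ra had 1 copy in 5075 bases, a number that 27.6% of genes reached, and Il17re had none in 615 bases. The 30-base windows below hold the matches in capitals. The Il17a window, at chr1:20734197-20734226 on the plus strand, holds 2 of its 3 copies. The Il17f window, at chr1:20777243-20777272 on the minus strand, holds 1 of its 2 copies. The Il17ra window lies at chr6:120482874-120482903 on the plus strand.
Il17a: gcctaTATTTATatgagcTATTTATgaatc
Il17f: taaactattataTATTTATgttggtagggg
Il17ra: tcattccttgaaTATTTATtctgtacctac
A match describes the letters only and shows no binding. Il17a (ENSMUSG00000025929, chr1:20730905-20734496, plus strand) and Il17f (ENSMUSG00000041872, chr1:20777146-20790617, minus strand) lie close together on chromosome 1. Il17re (ENSMUSG00000043088, chr6:113458484-113470758) and Il17ra (ENSMUSG00000002897, chr6:120463247-120487559) both lie on the plus strand of chromosome 6.

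After filtering, 3334 Zfp36_KO cells and 3360 WT cells were kept, with a median per cell of 5336.5 UMIs (unique molecular identifiers, each counting 1 captured transcript) in Zfp36_KO and 5292.5 in WT. Zfp36 itself had 1427 UMIs in Zfp36_KO ILC3 and 5814 in WT ILC3. That is 297 CPM (counts scaled to the gate's total UMIs) in Zfp36_KO and 1175 CPM in WT, a log2 ratio of -1.98 (95% interval -2.07 to -1.90). Over all kept cells, Zfp36 stood at 377 CPM in Zfp36_KO and 634 CPM in WT, a log2 ratio of -0.75 (-0.79 to -0.72). Thinned to 2000 UMIs per cell, a Zfp36 UMI was present in 31.7% of Zfp36_KO and 66.0% of WT ILC3 cells. These shares were 30.9% and 48.2% in the ILC2 gate and 62.9% and 69.6% in the myeloid gate, so the fall differed by gate. Intervals here and below are exact, cover counting error only, and say nothing of the spread between mice. Cells with 2 or more UMIs of the CD3 genes that were assigned neither to the myeloid nor to the B and plasma gate made up 3.27% of Zfp36_KO cells (109 cells) and 36.6% of WT cells (1229 cells), although the sort excluded CD3+ cells. A UMI of a Y-linked gene was present in 534 Zfp36_KO cells and in 4 WT cells, so the sex of the pooled mice and the genotype cannot be told apart. The libraries shared 2 cell barcodes.

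Cells were gated by UMIs of marker genes, none of which is a member. The ILC3 gate held 1158 Zfp36_KO and 1029 WT cells. Within it, cells with a UMI of Ccr6, Cd4 or Cxcr5 and none of Ncr1 or Tbx21 were called LTi-type (342 in Zfp36_KO, 432 in WT), after the lymphoid tissue inducer cells that these genes mark, and cells with a UMI of Ncr1 or Tbx21 and none of the LTi genes were called NCR-type (374 in Zfp36_KO, 392 in WT). A small set of 66 Zfp36_KO and 43 WT cells had UMIs of both marker sets. Cells with neither formed a further set, of 376 Zfp36_KO and 162 WT cells, whose median depth of 3053 UMIs in Zfp36_KO and 3897 in WT was below that of NCR-type cells (5146 in Zfp36_KO, 5318 in WT), so a missed marker UMI can also place a cell there. CD3+ cells were split by the constant-region transcripts of the T cell receptor. Trac+ T cells, of the αβ type, numbered 7 in Zfp36_KO and 1020 in WT, and Trdc+ T cells, of the γδ type, numbered 36 in Zfp36_KO and 76 in WT. A further 11 Zfp36_KO and 50 WT cells had both transcripts, and 55 Zfp36_KO and 83 WT cells had neither. Of those last, 43 Zfp36_KO and 34 WT cells had UMIs of the ILC2 marker Il17rb, so that set is not a clean T cell set.

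Il17a was carried by few cells, and by different cells in the libraries. In all kept cells, Zfp36_KO had 177 Il17a UMIs in 14 cells and WT had 601 in 39 cells. The level over all kept cells was 6.49 CPM in Zfp36_KO and 25.3 CPM in WT, a log2 ratio of -1.96 (-2.21 to -1.72), where 3.30% of the 12187 genes measured over all kept cells were 2-fold or more lower and 8.33% were 2-fold or more higher. In Zfp36_KO, the ILC3 gate held 34.5% of the Il17a UMIs and the CD3+ gates together held 37.9%. In WT, the ILC3 gate held 0.166% and the CD3+ gates together held 96.0%. WT Trac+ T cells alone carried 472 UMIs in 24 of 1020 cells, or 78.5% of the library's Il17a, while the 7 Zfp36_KO Trac+ T cells had none. With 7 cells, a count of 0 allows up to 42.9% of cells with a UMI (3 counts of the total), so the level in Zfp36_KO Trac+ T cells was not measurable at this number. The lower Il17a total of the Zfp36_KO library stood beside 7 captured Trac+ T cells, against 1020 in WT, and the part of this makeup in the total was not tested.

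**Figure D1:**
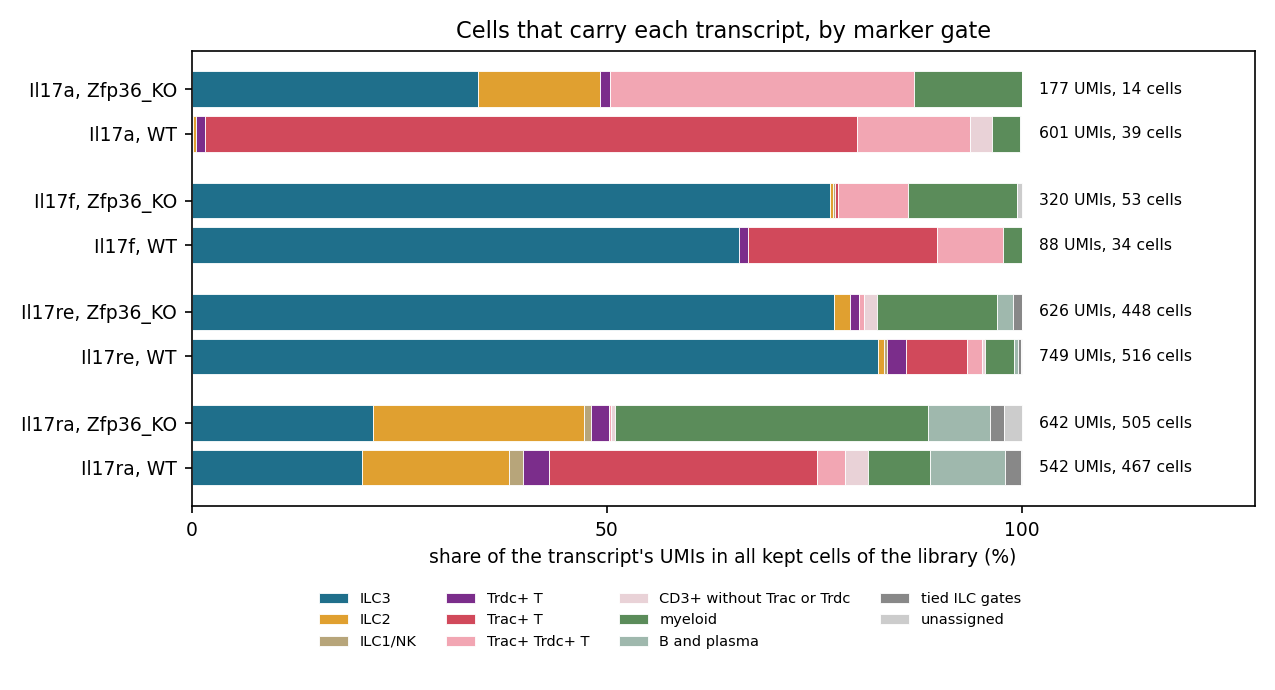
Share of the UMIs of each transcript (x axis, %) in each marker gate, for the Zfp36_KO library above the WT library. Numbers at the right give the UMIs and the cells that carry them. Il17a lay in CD3+ gates in WT and was spread over ILC3, T, ILC2 and myeloid gates in Zfp36_KO, Il17f and Il17re lay mostly in the ILC3 gate in both, and Il17ra was broad.

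Il17a was concentrated in single cells in both libraries. The richest Zfp36_KO cell held 65 UMIs, 36.7% of the library's Il17a, and the richest 3 cells held 70.6%. The richest WT cell held 72 UMIs, 12.0% of the library's Il17a, and the richest 3 cells held 33.4%. The richest 5% of cells held every Il17a UMI of each library, as they must where fewer cells than that carry it. At least 50% of the UMIs lay in 2 Zfp36_KO cells and in 6 WT cells. Carrying cells numbered 14 in Zfp36_KO and 39 in WT, and shares of the richest cells depend on that number. They therefore do not rank the libraries by concentration. Among cells with any Il17a UMI, the median was 3.00 UMIs in Zfp36_KO and 11.0 UMIs in WT. Cells with 10 or more UMIs numbered 5 in Zfp36_KO and 20 in WT. Zfp36_KO cells with a Y-linked UMI, 16.0% of the kept cells, held 139 of the 177 Il17a UMIs, and the part of sex in this was not tested.

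The richest Zfp36_KO cell had 28 UMIs of CD3 genes, 6 of Trdc, 1 of Trac and 27 of Il17f, so it was a CD3+ cell with far more δ than α chain transcript. It supplied 65 of the 67 Il17a UMIs of the 109 Zfp36_KO CD3+ cells. The other 2 UMIs lay in 1 Trdc+ T cell. WT Trdc+ T cells had 4, 2 and 1 Il17a UMIs in 3 of 76 cells, and the WT cells with both Trac and Trdc had 61, 13, 5, 2 and 1 in 5 of 50 cells. Scaled to the UMIs of all CD3+ gates, Il17a stood at 97.3 CPM in Zfp36_KO and 82.1 CPM in WT, a log2 ratio of 0.25 (-0.14 to 0.61). The Zfp36_KO value rests on that 1 cell, without which the CD3+ gates hold 1.79% of the library's Il17a UMIs in place of 37.9%.

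In the ILC3 gate, Il17a was higher in Zfp36_KO. The 8 carrying cells of 1158 had 35, 12, 3, 3, 3, 2, 2 and 1 UMIs in Zfp36_KO, and 1 cell of 1029 had 1 UMI in WT. None of these cells had a UMI of a CD3 gene, but the gate itself excludes cells with 2 or more. Transcripts of T cell receptor constant genes did occur in some. A Zfp36_KO cell with 3 Il17a UMIs had 1 UMI of Trac and 8 of the β chain gene Trbc2. The WT cell had 4 of the β chain gene Trbc1 and 8 of Trbc2. The other Zfp36_KO cells had at most 2 of Trbc2. The γ chain gene Tcrg-C1 had at most 1 UMI in a Zfp36_KO cell, including the one with 35 Il17a UMIs, and 8 in the WT cell. Among ILC3 without Il17f, Tcrg-C1 was detected in 41.6% of Zfp36_KO and 42.6% of WT cells. The level was 12.7 CPM in Zfp36_KO and 0.202 CPM in WT, a log2 ratio of 5.97 (3.44 to 11.30). The WT count is 1 UMI, and 1 Zfp36_KO cell held 57.4% of the Zfp36_KO count. Without the richest cell of the ILC3 gate in each library, the WT gate is at 0. The log2 ratio is then 3.16 against a floor of 3 UMIs over the WT gate, with the Zfp36_KO count taken as exact. The 3 cells with a Y-linked UMI held 50 of the 61 UMIs, although such cells were 13.7% of the Zfp36_KO ILC3 gate, and without them the log2 ratio was 3.73 (0.95 to 9.16). Thinned to 2000 UMIs per cell, 0.457% of Zfp36_KO ILC3 cells (0.148 to 1.06) and 0 of 1006 WT ILC3 cells (0 to 0.366) had an Il17a UMI, against 0.165% of Zfp36_KO and 0.315% of WT ILC2-gate cells. Those intervals overlap, and shares this low are near the level in a gate taken as background. Unthinned shares in the ILC3 gate were 0.691% in Zfp36_KO and 0.0972% in WT. The median depth was 3799 UMIs in Zfp36_KO and 4538 in WT in the ILC3 gate, and 5745 UMIs in Zfp36_KO and 6274 in WT in the ILC2 gate.

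By subset, the Zfp36_KO Il17a UMIs of the ILC3 gate lay in 5 LTi-type cells (11 UMIs) and 3 cells with neither marker set (50 UMIs). NCR-type cells had none in either library, among 374 Zfp36_KO and 392 WT cells, where a count of 0 still allows a UMI in up to 0.802% of Zfp36_KO cells and 0.765% of WT cells (3 counts of the total). WT LTi-type cells also had none. The Zfp36_KO level of 8.84 CPM there was 5.41-fold that of a floor of 3 UMIs set for WT. That value takes the 11 Zfp36_KO UMIs as exact and has no interval. Il17f was found in 6 of the 8 Zfp36_KO Il17a+ ILC3 cells, and Il22, the main cytokine of ILC3, in 6 of 8.

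Il17a UMIs also occurred outside the ILC3 and CD3+ gates. The ILC2 gate of Zfp36_KO held 26 UMIs, of which 25 lay in 1 cell with 6 UMIs of Gata3 (the ILC2 transcription factor), 11 of Il17rb, 5 of Klrg1 and 4 of Il13. This cell had no UMI of Trac or the CD3 genes, but 5 of Trbc1 and 11 of Trbc2, the constant genes of the T cell receptor β chain. The WT ILC2 gate held 2 UMIs in 2 cells. The myeloid gate held 23 UMIs in 2 Zfp36_KO cells and 20 UMIs in 2 WT cells. Of these, 1 Zfp36_KO cell with 17 UMIs had 276 UMIs of the myeloid gene Lyz2 and 15 of Tmem176b, and 1 WT cell with 19 UMIs had 21 of CD3 genes and 16 of Trac. Such cells carry markers of more than 1 type, and whether they are doublets was not tested beyond the doublet caller, which did not mark them.

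**Figure D2:**
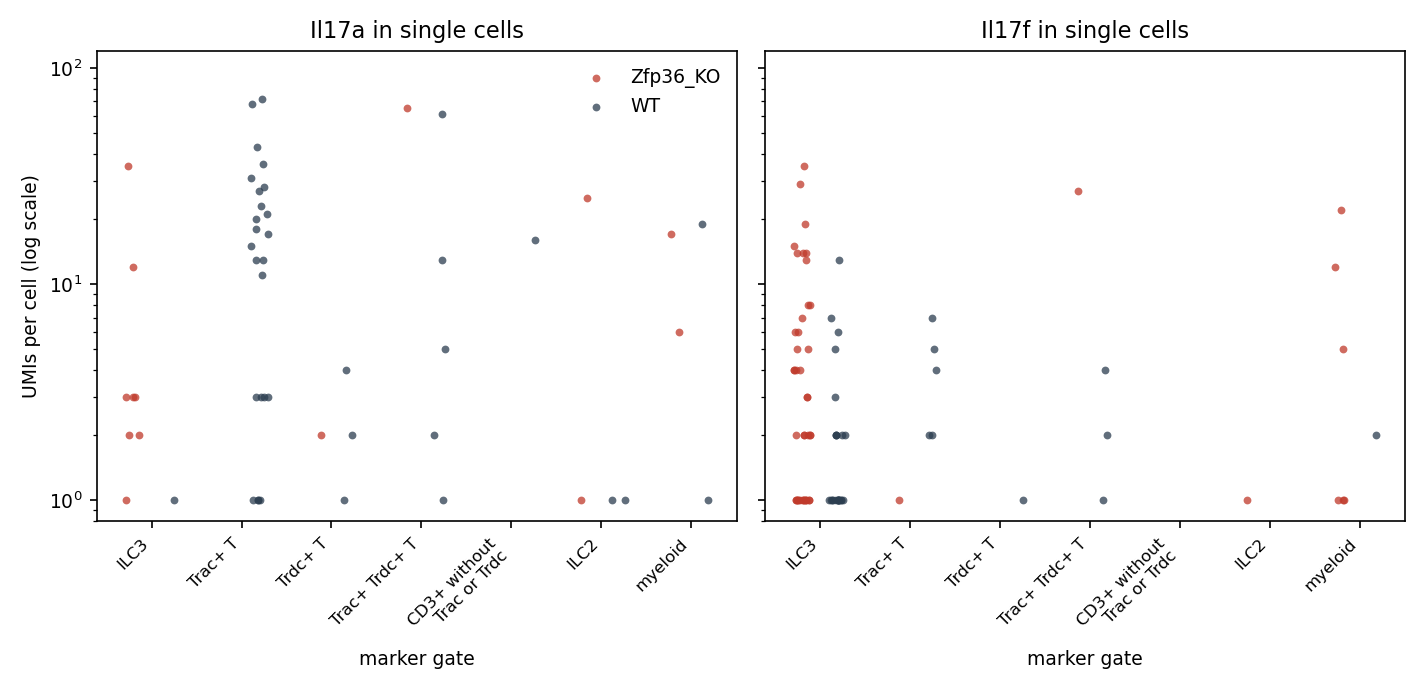
Il17a (left) and Il17f (right) UMIs in every cell with at least 1 (y axis, log scale) by marker gate, with Zfp36_KO left of WT in each gate and points spread sideways for visibility. Il17a reached 72 UMIs in WT Trac+ T cells and 65 UMIs in 1 Zfp36_KO cell with both Trac and Trdc, and Il17f reached 35 UMIs in Zfp36_KO ILC3 and 13 in WT ILC3.

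The WT Trac+ T cells that carried Il17a differed in their other transcripts from those that did not. The genes named in this comparison were picked after their values were seen, from lists of regulators of IL-17 producers and of markers of IL-17-type γδ T cells. A UMI of Ccr6, a chemokine receptor of T helper 17 cells and LTi cells, was present in 12 of the 24 Il17a+ cells and in 4.22% of the 996 others. For Tmem176b, an ILC3 gating marker here, the shares were 87.5% and 19.2%. The interleukin-1 receptor gene Il1r1 was present in 41.7% and 3.11%. Tcrg-C1, a γ chain constant gene with near-identical copies, was detected in 58.3% of Il17a+ and 12.7% of Il17a- Trac+ T cells, and Cd4 in 62.5% and 54.6%. Other genes of these lists had a lower share in Il17a+ than in Il17a- cells, among them Tcrg-C4 (4.17% and 16.3%), Tcrg-C2 (12.5% and 26.5%) and Stat3 (33.3% and 48.8%). Foxp3, which marks regulatory T cells, was present in 1 of 24 and 115 of 996. Over all kept cells, Il17f was also found in 8 of the 14 Zfp36_KO Il17a+ cells and in 8 of the 39 WT Il17a+ cells.

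Il17f was a transcript of the ILC3 gate in both libraries and was higher in Zfp36_KO. In all kept cells Zfp36_KO had 320 UMIs in 53 cells and WT had 88 in 34 cells, 11.7 CPM in Zfp36_KO and 3.70 CPM in WT. The ILC3 gate held 76.9% of these UMIs in Zfp36_KO and 65.9% in WT. Within the gate, 41 of 1158 Zfp36_KO cells had 246 UMIs and 24 of 1029 WT cells had 58 UMIs. The level was 51.3 CPM in Zfp36_KO and 11.7 CPM in WT, a log2 ratio of 2.13 (1.71 to 2.57), or 4.37-fold. That interval treats the UMIs of 1 cell as independent, which they are not, so it is too narrow. Thinned to 2000 UMIs per cell, 2.74% of Zfp36_KO ILC3 cells (1.86 to 3.89) and 1.69% of WT ones (0.987 to 2.69) had an Il17f UMI. Those shares have overlapping intervals. Without cells with a Y-linked UMI the log2 ratio was 1.93 (1.50 to 2.38), and without the richest cell of each library it was 2.27 (1.80 to 2.77).

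In the ILC3 gate, 2.63% of the 9614 genes with 50 or more UMIs over both libraries were 2-fold or more higher in Zfp36_KO and 1.26% were 2-fold or more lower. Il17f and Il17a were among the higher genes, and Il17a reached 50 UMIs only through its Zfp36_KO count, so that its place there was fixed by the minimum. The other ligands of the family, Il17b, Il17c, Il17d and Il25, had 0 UMIs in the gate in both libraries, and over all kept cells Il17d had 1 UMI in each library and the other 3 had 0. The median log2 ratio of all genes in the gate was 0.16, so ratios are also given relative to it. Under median-of-ratios scaling the values were 5.82 for Il17a, 1.97 for Il17f, -0.47 for Il17re and 0.22 for Il17ra. That scaling turned the split of 253 higher and 121 lower genes into 135 higher and 187 lower.

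Among cells with any Il17f UMI, the UMIs per cell were higher in Zfp36_KO. Zfp36_KO Il17f+ ILC3 ranged from 1 to 35 UMIs with a median of 3.00 and a mean of 6.00, and WT Il17f+ ILC3 ranged from 1 to 13 with a median of 1 and a mean of 2.42. Cells with exactly 1 UMI numbered 14 in each library, and cells with 10 or more numbered 8 in Zfp36_KO and 1 in WT. The richest cell held 14.2% of the gate's Il17f UMIs in Zfp36_KO and 22.4% in WT, and the richest 3 held 33.7% in Zfp36_KO and 44.8% in WT.

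Among ILC3 subsets, Il17f lay in LTi-type cells and in cells with neither marker set. LTi-type cells had 154 UMIs in 22 of 342 Zfp36_KO cells and 47 UMIs in 17 of 432 WT cells. Their level was 124 CPM in Zfp36_KO and 25.6 CPM in WT, a log2 ratio of 2.27 (1.79 to 2.78), where 4.02% of the 7240 genes measured in LTi-type cells were 2-fold or more higher and 1.23% were 2-fold or more lower. Cells with neither marker set had 88 UMIs in 16 Zfp36_KO cells and 9 UMIs in 5 WT cells, a log2 ratio of 2.38 (1.39 to 3.56). NCR-type cells had 2 UMIs in Zfp36_KO and 1 in WT, too few for a ratio of use (log2 interval -3.12 to 7.02), and cells with both marker sets also had 2 in Zfp36_KO and 1 in WT. LTi-type cells were 342 of the gate's 1158 cells in Zfp36_KO and 432 of 1029 in WT, and cells with neither marker set were 376 of 1158 in Zfp36_KO and 162 of 1029 in WT. The part of this makeup and of depth in the Il17f levels was not tested.

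Most Il17f+ ILC3 also carried Il22, in both libraries. In Zfp36_KO, 31 of 41 Il17f+ cells (75.6%, 59.7 to 87.6) had an Il22 UMI, against 35.7% of the 1117 Il17f- cells. In WT, 17 of 24 Il17f+ cells (70.8%, 48.9 to 87.4) had one, against 31.7% of the 1005 Il17f- cells. Median depth was alike within a library, 3869 UMIs in Il17f+ and 3796 in Il17f- cells of Zfp36_KO, and 4387.5 and 4543 in WT. The Il17f+ cells held 32.8% of the gate's Il22 UMIs in Zfp36_KO and 12.8% in WT. The Zfp36_KO cell with 35 Il17f UMIs had 854 Il22 UMIs, and the one with 29 had 1. High Il17f therefore occurred both with and without high Il22. Il22 in the gate as a whole stood at 2887 CPM in Zfp36_KO and 1340.3 CPM in WT, a log2 ratio of 1.11, below that of Il17f.

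**Figure D3:**
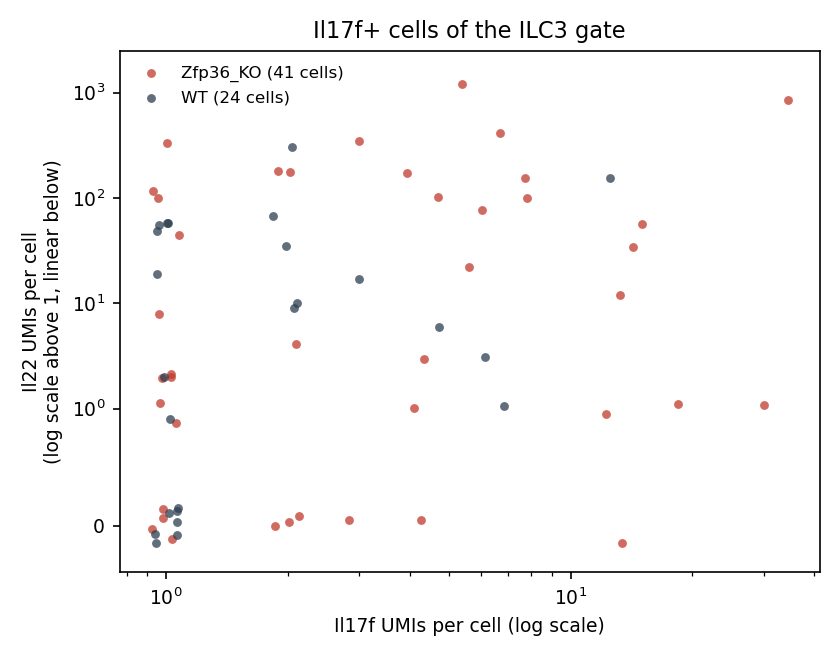
Il17f UMIs (x axis, log scale) and Il22 UMIs (y axis, log scale above 1 and linear below) in each Il17f+ cell of the ILC3 gate, 41 in Zfp36_KO and 24 in WT, with points spread slightly for visibility. Cells without Il22 lie at 0, and the cells with 10 or more Il17f UMIs, 8 in Zfp36_KO and 1 in WT, had from 0 to 854 Il22 UMIs.

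Shares of other transcripts were set side by side in Il17f+ and Il17f- ILC3, for genes again picked after their values were seen. Tcrg-C4, a γ chain constant gene with similar copies, was in 22.0% (10.6 to 37.6) of Zfp36_KO Il17f+ ILC3 and 39.5% (36.6 to 42.4) of the Il17f- ones, which overlap, and in 8.33% (1.03 to 27.0) and 37.9% (34.9 to 41.0) in WT. Bcl11b, a transcription factor gene of T cells and ILC2, was in 0 of 41 Il17f+ cells (0 to 8.60%) and 13.1% of Il17f- cells (11.1 to 15.2) of Zfp36_KO, while in WT it was in 1 of 24 and 13.3%, with overlapping intervals. Ccr6 was in 70.8% (48.9 to 87.4) and 40.3% (37.2 to 43.4) in WT, while in Zfp36_KO it was in 39.0% (24.2 to 55.5) and 28.2% (25.6 to 30.9), which overlap. Of the other LTi genes, Cxcr5 was in 22.0% (10.6 to 37.6) and 7.70% (6.20 to 9.42) in Zfp36_KO. In WT Cxcr5 was in 25.0% and 11.4%, with overlapping intervals. Cd4 was in 14.6% and 5.46% in Zfp36_KO and in 12.5% and 8.16% in WT, with overlap in both. Stat3, which encodes the factor that relays IL-23 signals, turned direction between libraries with overlapping intervals in both, at 56.1% and 39.6% in Zfp36_KO and 16.7% and 29.9% in WT.

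Outside ILC3, Il17f was found mainly in the CD3+ and myeloid gates. CD3+ gates held 28 UMIs in each library, in 2 of 109 Zfp36_KO cells (27 in the cell that also led Il17a, and 1) and in 9 of 1229 WT cells (at most 7 in a cell). That is 40.7 CPM in Zfp36_KO and 3.98 CPM in WT, with 1 cell making up 96.4% of the Zfp36_KO value. Of the WT Il17f+ CD3+ cells, 7 of 9 also had Il17a. The myeloid gate held 42 UMIs in 6 Zfp36_KO cells and 2 UMIs in 1 WT cell. All 6 of those Zfp36_KO cells had UMIs of the ILC3 markers Tmem176a and Tmem176b, with total depths of 4628 to 21143 UMIs. The ILC2 gate held 1 UMI in Zfp36_KO and 0 in WT.

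Il17re, the IL-17C receptor chain, marked the ILC3 gate in both libraries and was slightly lower there in Zfp36_KO. The gate held 77.3% of Il17re UMIs in Zfp36_KO and 82.6% in WT, with 484 UMIs in 354 of 1158 Zfp36_KO cells and 619 in 416 of 1029 WT cells. The level was 101 CPM in Zfp36_KO and 125 CPM in WT, a log2 ratio of -0.31 (-0.49 to -0.14), which is short of 2-fold.

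Il17re was found in all 4 ILC3 subsets. LTi-type cells stood at 130.2 CPM in Zfp36_KO and 149 CPM in WT, cells with neither marker set at 104 CPM in Zfp36_KO and 127 CPM in WT, cells with both sets at 93.8 CPM in Zfp36_KO and 149 CPM in WT, and NCR-type cells at 81.4 CPM in Zfp36_KO and 100.3 CPM in WT. By these values NCR-type cells stood lowest in both libraries. The log2 ratio was -0.20 (-0.49 to 0.09) in LTi-type cells, -0.29 (-0.70 to 0.12) in cells with neither set and -0.30 (-0.61 to 0.00) in NCR-type cells. Cells with both sets had 35 UMIs in Zfp36_KO and 47 in WT, a log2 ratio of -0.66 or a ratio of 0.631 (0.395 to 0.999), an interval that ends just short of no change. By counts, 12.1% of Zfp36_KO Il17re+ ILC3 also had a UMI of its partner chain Il17ra, against 10.7% of Il17re- cells, and in WT these shares were 8.89% and 10.4%.

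In CD3+ cells Il17re had few UMIs. Zfp36_KO had 21 UMIs in 12 of 109 CD3+ cells and WT had 89 in 67 of 1229, which is 30.5 CPM in Zfp36_KO and 12.7 CPM in WT, a log2 ratio of 1.27 (0.51 to 1.97), in gates where 7.03% of 8753 genes were 2-fold or more higher and 5.96% 2-fold or more lower. The T cell makeup moves with this ratio, since Trdc was detected in 43.1% of Zfp36_KO and 10.3% of WT CD3+ cells, and its part was not tested. Within Trdc+ T cells Il17re had 7 UMIs in 4 of 36 Zfp36_KO cells and 18 in 14 of 76 WT cells, a log2 ratio of CPM of -0.49 (-2.00 to 0.83). WT Trac+ T cells stood at 9.43 CPM, and the 7 Zfp36_KO Trac+ T cells had no UMI. Cd163l1, a gene of IL-17-type γδ T cells, was in 6 of 12 Zfp36_KO Il17re+ CD3+ cells and 9.28% of the 97 others, and in 23.9% of the 67 WT Il17re+ CD3+ cells and 2.67% of the 1162 others. Blk, a kinase gene of the same cells, was in 33.3% and 8.25% in Zfp36_KO and in 34.3% and 2.32% in WT. Both were picked after their values were seen, and other genes of the γδ list did not all follow. Trdc was in 6 of 12 and 42.3% in Zfp36_KO and in 35.8% and 8.78% in WT, and Tcrg-C1 in 66.7% and 74.2% in Zfp36_KO and in 68.7% and 19.8% in WT.

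Il17re was scarce in the remaining gates. The ILC2 gate had 12 UMIs among 1231 Zfp36_KO cells and 6 among 643 WT cells, and the ILC1/NK gate had 0 in Zfp36_KO and 2 in WT. The myeloid gate had 90 UMIs in Zfp36_KO and 26 in WT, at 10.8 CPM in Zfp36_KO and 13.2 CPM in WT.

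**Figure D4:**
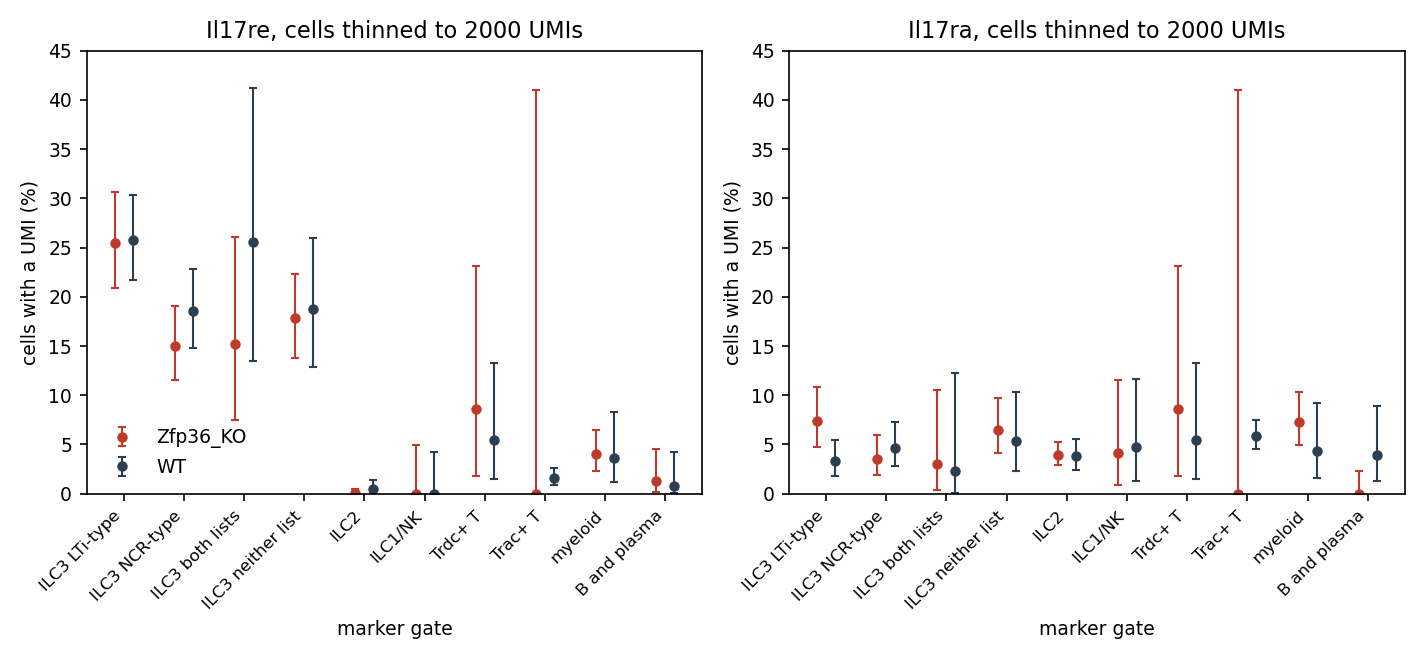
Share of cells with a UMI of Il17re (left) and Il17ra (right) after thinning each cell to 2000 UMIs (y axis, %), by marker gate, Zfp36_KO left of WT. Bars are exact 95% intervals of counting error, wide where a gate has few cells, as for the 7 Zfp36_KO Trac+ T cells. Il17re stood out in the ILC3 subsets, and Il17ra was also found outside them.

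Il17ra, the chain shared by the receptors of IL-17A, IL-17F and IL-17C, was found at low counts in every gate except the 7 Zfp36_KO Trac+ T cells. All kept cells had 642 UMIs in 505 Zfp36_KO cells and 542 UMIs in 467 WT cells, 23.5 CPM in Zfp36_KO and 22.8 CPM in WT, a log2 ratio of 0.05 (-0.12 to 0.21). The ILC3 gate held 21.8% of these UMIs in Zfp36_KO and 20.5% in WT. The largest holders were the myeloid gate in Zfp36_KO, with 37.7%, and Trac+ T cells in WT, with 32.3%. The myeloid gate had 406 Zfp36_KO cells at a median depth of 20858 UMIs and 142 WT cells at 9621.5 UMIs.

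Scaled to the UMIs of a gate, Il17ra stood between 10.2 and 59.9 CPM in Zfp36_KO and between 11.1 and 39.9 CPM in WT, over the gates in which it was detected and that are listed here. In Zfp36_KO the order was Trdc+ T cells (59.9 CPM, 14 UMIs), ILC3 (29.2 CPM), myeloid cells (29.0 CPM), ILC2 (21.9 CPM), ILC1/NK cells (15.6 CPM, 6 UMIs) and B and plasma cells (10.2 CPM). In WT it was Trdc+ T cells (39.9 CPM, 17 UMIs), Trac+ T cells (25.7 to 34.8 CPM, exact interval), ILC3 (22.4 CPM), ILC2 (21.8 CPM), myeloid cells (20.8 CPM), ILC1/NK cells (18.1 CPM, 9 UMIs) and B and plasma cells (11.1 CPM). The exact Poisson intervals of ILC3 (24.5 to 34.4 CPM) and ILC2 (18.7 to 25.5 CPM) overlapped in Zfp36_KO, as did those of ILC3 (18.5 to 27.0 CPM) and ILC2 (17.7 to 26.6 CPM) in WT. B and plasma cells lay below both, at 7.53 to 13.5 CPM in Zfp36_KO and 8.21 to 14.7 CPM in WT.

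In the ILC3 gate Il17ra had 140 UMIs in Zfp36_KO and 111 in WT, a log2 ratio of 0.38 (0.01 to 0.75) that is 0.22 after scaling to the median of all genes. By subset, LTi-type cells stood at 38.6 CPM (48 UMIs) in Zfp36_KO and 16.9 CPM (31 UMIs) in WT, a log2 ratio of 1.19 (0.51 to 1.89), while NCR-type cells stood at 23.8 CPM (46 UMIs) in Zfp36_KO and 28.7 CPM (61 UMIs) in WT, a log2 ratio of -0.27 (-0.85 to 0.31). Cells with neither marker set had a log2 ratio of 0.44 (-0.46 to 1.40) and cells with both sets one of 0.76 (-1.14 to 2.94, on 8 UMIs in Zfp36_KO and 4 in WT). Differences between those ratios were not tested. In ILC2 the log2 ratio was 0.01 (-0.37 to 0.39).

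Few of the remaining receptor chains and pathway genes passed 2-fold in the ILC3 gate. Of the 5 receptor chain genes, 4 had 50 or more UMIs. Of these, 1 (Il17rb) was 2-fold or more higher and 0 were lower, where 2.63% of all 9614 genes were higher and 1.26% lower. Their median log2 ratio was 0.16, equal to that of all genes. Il17rb, which encodes the IL-25 receptor chain, had 73 UMIs in Zfp36_KO and 18 in WT, a log2 ratio of 2.06 (1.30 to 2.90). Like Il17a, it reached 50 UMIs only through its Zfp36_KO count. With predicted doublets kept its log2 ratio was 0.65 (0.11 to 1.21), and it is a gating marker of ILC2. Il17rc, the other chain of the IL-17A and IL-17F receptor, had 28 UMIs in Zfp36_KO and 30 in WT, and Il17rd had 14 in Zfp36_KO and 7 in WT. Of 16 genes of receptor signalling and feedback, such as the adaptor gene Traf3ip2, none passed 2-fold in either direction, with a median of 0.13. Of 20 regulators of IL-17 producers, 17 were measured and none passed 2-fold, with a median of 0.32. In LTi-type cells 3 of 16 measured regulators were 2-fold or more higher and none lower, where 4.02% of all 7240 genes were higher and 1.23% lower, namely Zbtb16 (1.76), Hif1a (1.20) and Stat3 (1.16), the genes of PLZF, of a hypoxia factor and of the factor downstream of IL-23, with a list median of 0.39 beside 0.17 for all genes.

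Genes with the most similar distribution were ranked over 18 points among 10127 genes. Each point is a gate in 1 library with 50 or more cells there, so some gates enter from 1 library only. For Il17re they were Il1r1 (Pearson r 0.966), Ablim3 (0.963), Il23r (0.957), Gm38411 (0.954) and Cpe (0.932). Il1r1 and Il23r are themselves ILC3 gating markers, and all of these points share the contrast of the ILC3 gate with the rest. For Il17ra the highest were Abraxas2 (0.831), Noct (0.818), Snx25 (0.816), Pnrc2 (0.812) and Napg (0.804). The points of 1 library share its preparation and differ in depth.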

How the data were processed

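The authors counted UMIs with Cell Ranger 3.1.0 on build mm10, per the file headers and the submitters' processing notes, and deposited raw counts for each gene in each called barcode (3522 barcodes and 27733804 UMIs in Zfp36_KO, 3593 and 24721524 in WT). The annotation release is not given in the sources used here. RNA outside cells was not measured, since empty droplets were not used here. Barcodes with under 500 genes or over 10% mitochondrial UMIs were left out, then doublets predicted by Scrublet (scanpy 1.11.5): 5 in Zfp36_KO (0.150% of 3339) and 37 in WT (1.09% of 3397). So few calls in Zfp36_KO mean that doublets were hardly removed there.

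Gates were assigned in order: myeloid or B and plasma (3 or more markers), CD3+ (2 or more CD3 UMIs), then ILC3, ILC2 or ILC1/NK by the largest share of 6 markers, with at least 2. UMIs were summed per gate and scaled to CPM. Ratios were computed for all genes, and genes with 50 or more UMIs over both libraries enter the counts past 2-fold. Share intervals are Clopper-Pearson, UMI intervals Poisson and ratio intervals from the binomial split (scipy 1.17.1), at 95%. In simulated counts for the ILC3 comparison (9614 genes), 95.7% of unchanged genes had an interval holding the true ratio. Those counts were drawn independently, as the intervals assume. The simulation thus checks the computation only, and not transcripts whose UMIs lie in few cells. Likeness of genes used log2(CPM + 10), gates of 50 or more cells and genes of 200 or more UMIs. The genes named by rule are the 4 members, Zfp36, Il22, pathway genes past 2-fold and the 5 most alike genes. The remaining ligand and receptor chain genes of the family, and Traf3ip2 as an example of its list, were named whatever their ratio. Other genes, named as markers of single cells or gates or set beside a member within a gate, were picked after their values were seen. Some shares of cells and 1 stricter form of the ILC3 gate are not reported here. The members and lists were chosen with earlier results of these data known.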

Additional observations from a re-analysis of the deposited data

Results flagged for a closer look

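Il17re went in opposite directions in 2 cell groups. Its log2 ratio of Zfp36_KO over WT was 1.27 (0.51 to 1.97) in the CD3+ gates and -0.31 (-0.49 to -0.14) in the ILC3 gate. The difference between these ratios was not tested, since each genotype is 1 library. Within Trdc+ T cells the log2 ratio was -0.49 (-2.00 to 0.83), on 7 UMIs in Zfp36_KO and 18 in WT.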

How the results depend on the processing

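No paired analysis was possible because each genotype has 1 library, and for the same reason no replicate could be left out. Over 30 alternatives the log2 ratios of the 4 members in the ILC3 gate kept their sign. Of 97 alternatives in all, 84 stayed within the 95% counting interval of the reported value. That interval is wide for Il17a (3.73 without cells with a Y-linked UMI, against 5.97). For ratios and shares of UMIs it treats the UMIs of 1 cell as independent, which they are not. Gene counts past 2-fold have no interval and were judged by fold change alone. Without the richest cell of the ILC3 gate in each library, the log2 ratio of Il17a there was 3.16 against a floor of 3 UMIs. Without the richest cell of the whole Zfp36_KO library, a CD3+ cell, 54.5% of Zfp36_KO Il17a UMIs lay in ILC3 and 1.79% in CD3+ gates. Without cells with a Y-linked UMI, CD3+ gates held 5.26% of Zfp36_KO Il17a and ILC3 84.3% of Zfp36_KO Il17f. Genes 2-fold higher and lower numbered 135 and 187 with median-of-ratios scaling, 108 and 43 at a minimum of 200 UMIs, and 982 and 652 at a minimum of 1 UMI in each library. The cause of these shifts was not tested, beyond fewer cells, UMIs or genes entering by construction. With the richest 5% of cells left out, Il17a, Il17f and Il17rb had 0 UMIs in both libraries of the ILC3 gate and gave no ratio. The Il17ra interval included 0 with predicted doublets kept (-0.01 to 0.73) and with median-of-ratios scaling (-0.15 to 0.60).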
